A study of Mus musculus with 5 samples.

Results

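Integrins are cell surface receptors made of an alpha and a beta subunit, and laminins are cross-shaped proteins of the basement membrane built from an alpha, a beta and a gamma chain. Their RNA was examined in 5 mouse liver tumors, of which 3 overexpressed the transcription factor Prox1 (Prox1 OE) and 2 carried the matching empty vector (Control). Members were the genes of the normalized count table whose symbol names an integrin alpha subunit, an integrin beta subunit or a laminin alpha, beta or gamma chain, and whose mean over the 5 libraries was at least 10 normalized counts. Of 37 genes with such a symbol, 36 were members, among 55397 genes listed and 17105 with a mean of at least 10. They comprised 17 alpha subunits, 8 beta subunits and 11 laminin chains. The gene left out was Itgad, a leukocyte alpha subunit, at 1.64 and 0.848 normalized counts in Control and 1.02, 3.54 and 4.63 in Prox1 OE.

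All tumors arose in female C57BL/6N mice injected into the tail vein at 8 weeks of age, a route by which plasmids enter hepatocytes. Every mouse received the Sleeping Beauty transposase and transposons for Akt and for NICD, the intracellular part of Notch1, both driven by EF1a, the latter with rtTA, the factor that doxycycline activates. Prox1 OE mice also received FLAG-tagged mouse Prox1 with GFP behind a doxycycline-responsive Tre promoter, and Control mice the same plasmid with GFP alone. Food with 6.25% doxycycline was given from day 21, for overexpression from week 3 to week 4. The labels give the sample as transformed hepatocytes of a liver tumor, taken 1 week into overexpression or when a humane endpoint was reached, and do not tell for each tumor which it was. They also do not say that the libraries came from separate animals, so the p-values measure only the spread between these libraries.

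In liver, the collagen receptor Itga1 and the fibronectin receptor Itga5 are carried by hepatocytes, sinusoidal cells and stellate cells, while bile duct cells rest on a laminin-containing basement membrane that healthy hepatocytes lack. Integrins such as Itga6 with Itgb4, Itga3, Itgb6 and Itgb8 are typical of epithelia, and the alpha subunits that pair with Itgb2 or Itgb7 are typical of leukocytes. Each pair is an obligate heterodimer, so RNA of a single subunit does not give the amount of receptor.

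Libraries held 48740863 to 56629477 reads. Prox1 stood at 4153 and 4664 normalized counts in Control and at 48089.8, 11113 and 8231 in Prox1 OE, which did not overlap, with a log2 change of 1.90 ± 0.66 (SE, limma adjusted p = 0.061). Reads of the transgene and of the mouse gene were not separated. Hepatocyte markers were present in every library (Alb between 480680 and 2594500 normalized counts), and so were the biliary markers Epcam (3515 to 8657) and Krt19 (1643 to 10790). At a limma adjusted p under 0.05, all 8 hepatocyte markers tested were higher in Prox1 OE, beside 17.1% of all genes tested. Of 8 biliary markers, 7 were lower, beside 16.2%.

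The integrin and laminin genes were mostly lower in Prox1 OE tumors. The epithelial subunits Itgb8 and Itgb6, the fibroblast subunit Itga11 and the laminin chains Lama4, Lama5, Lamc1 and Lama1 had decreases of over 1 on the log2 scale, while Itgb5, Itga7 and the leukocyte subunits Itgal and Itgb7 rose. With limma on log2(normalized count + 1), 23 of the 36 members passed an adjusted p of 0.05 (Benjamini-Hochberg over all 17105 genes), beside 33.3% of all genes tested. Of these, 4 were higher, beside 17.1% of all genes, and 19 were lower, beside 16.2%. A decrease of at least 1 on the log2 scale was seen for 11 of the 19, and no rise reached that size. The median log2 change was -0.49 over the members and -0.02 over all genes. The 2 groups of libraries did not overlap for 25 members (6 with every Prox1 OE value above and 19 below both Control values), beside 63.3% of all genes. Scaling by the total count, under which the median over all genes was -0.44, gave a split of 0 higher and 22 lower, and over all genes the split went from 2933 higher and 2769 lower to 1475 and 6833. The number called fell to 6 without Control replicate 1, 8 without Control replicate 2, 13 without Prox1 OE replicate 2 and 17 without Prox1 OE replicate 3, and was 22 without Prox1 OE replicate 1. Itga3, Itgav, Itgb6, Itgb8 and Lama4 kept their call under all 16 alternatives.

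**Figure D1:**
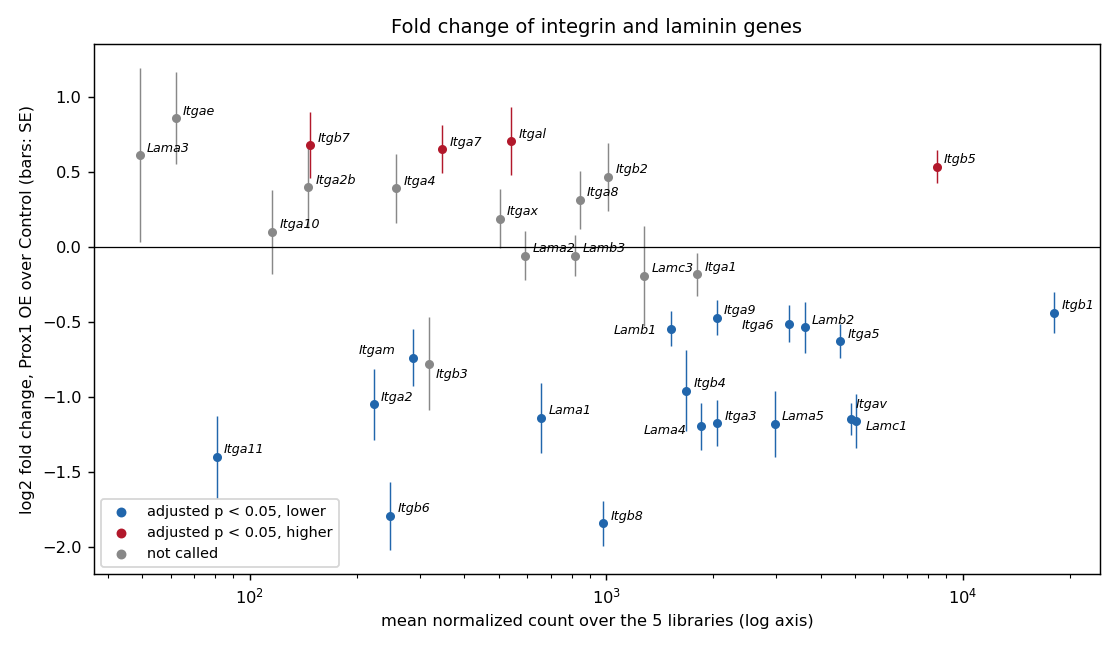
Log2 fold change of 35 members, Prox1 OE over Control (vertical axis, bars show the SE from limma), against its mean normalized count over the 5 libraries (horizontal log axis). Blue points were called lower (18 genes shown), red points higher (4 genes) and grey points were not called (13 genes). Itgb8 and Itgb6 lie lowest among the points shown, at -1.84 and -1.79, and the red point farthest to the right is Itgb5. Scaled by the total count, none of the 4 red points was called.

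The 6 epithelial integrins all fell (median log2 fold change -1.11), beside 16.2% of all genes. Itgb8, the subunit that with Itgav activates latent TGF-beta (chr12:119158022-119238802 in mm10), had 1852 and 1604 normalized counts in Control and 539, 474 and 434 in Prox1 OE. Every Prox1 OE library was thus below both Controls, at 0.279 of the Control mean, with a log2 change of -1.84 ± 0.15 (SE, limma adjusted p = 0.0017). Itgb6, an epithelial subunit with the same role in TGF-beta activation (chr2:60598292-60722643), had 423 and 441 in Control and 149, 129.8 and 98.4 in Prox1 OE. The groups did not overlap and the log2 change was -1.79 ± 0.23 (limma adjusted p = 0.0028).

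Itga3, the laminin receptor that pairs with Itgb1 (chr11:95044474-95076801), had 3093 and 3031 normalized counts in Control and 1377, 1584 and 1148 in Prox1 OE, a log2 change of -1.17 ± 0.15 (limma adjusted p = 0.0029). The Controls were close to each other and far above all Prox1 OE libraries. Itga2, a collagen receptor (chr13:114833081-114932100), had 312 and 329 in Control and 201.4, 145 and 126 in Prox1 OE, a log2 change of -1.05 ± 0.24 (limma adjusted p = 0.015). Here too the groups were apart, with Prox1 OE replicate 1 nearest to Control.

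Itga6 and Itgb4 form the laminin receptor of hemidesmosomes, the junctions that anchor epithelia to their basement membrane. Itga6 had 4079 and 3820 normalized counts in Control and 3106, 2624 and 2617 in Prox1 OE, a log2 change of -0.51 ± 0.12 (limma adjusted p = 0.019). Itgb4 had 2424 and 2224 in Control and 1605, 1329 and 801 in Prox1 OE, a log2 change of -0.96 ± 0.27 (limma adjusted p = 0.032). Neither gene overlapped between groups, and Prox1 OE replicate 3 had the lowest Itgb4 by a wide margin. The difference between Itgb4 and Itga6 in log2 counts fell from -0.75 and -0.78 in Control to -0.95, -0.98 and -1.71 in Prox1 OE. The calls for Itga2, Itga6 and Itgb4 were each lost without Control replicate 1 (limma adjusted p of 0.11, 0.17 and 0.18), without Control replicate 2 (0.11, 0.097 and 0.11) and without Prox1 OE replicate 2 (0.054, 0.059 and 0.073).

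**Figure D2:**
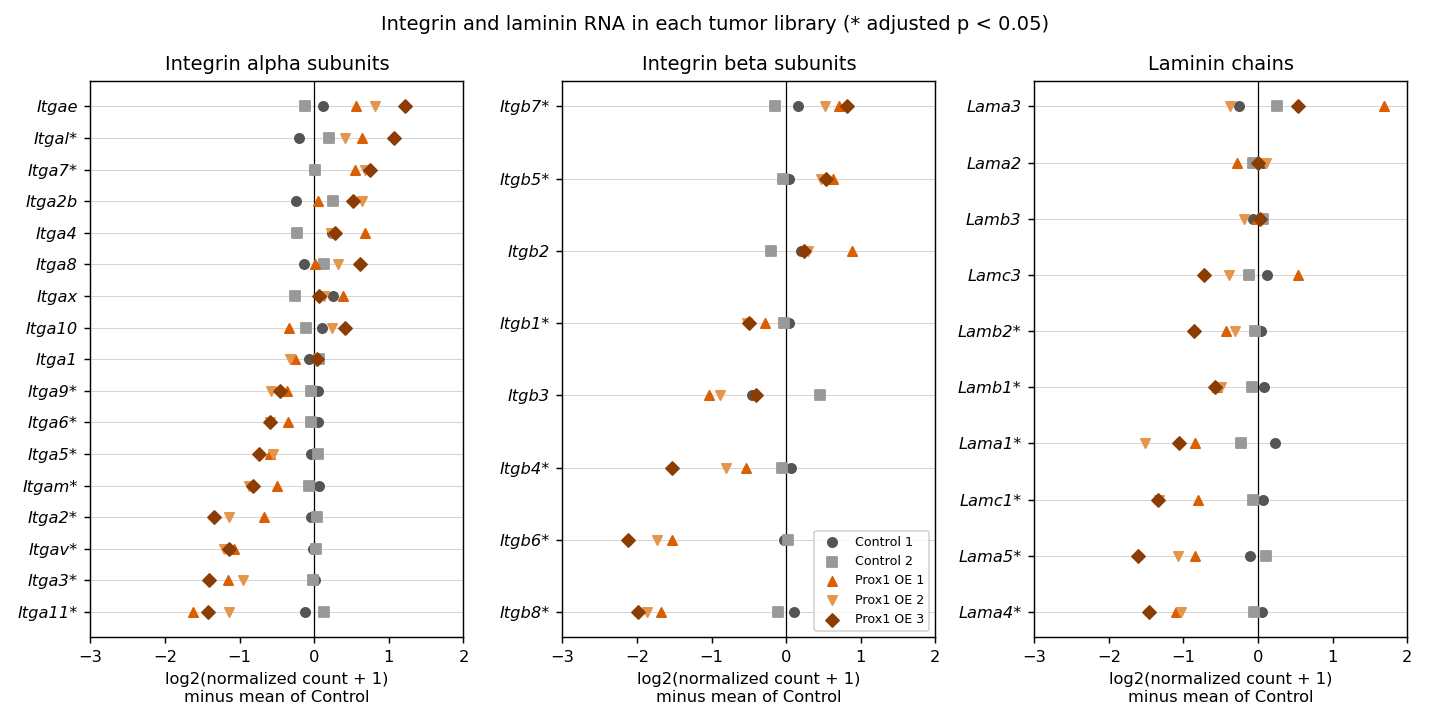
log2(normalized count + 1) of 35 members in each library minus the mean of the 2 Control libraries (horizontal axis), with alpha subunits, beta subunits and laminin chains in 3 panels. Grey circles and squares are Control replicates 1 and 2, orange and brown symbols are the 3 Prox1 OE replicates, and an asterisk marks an adjusted p under 0.05. The Prox1 OE symbols of Itgb8 and Itgb6 lie far to the left of both Controls, while those of Lama3 and Lamc3 spread to both sides.

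The biliary markers moved in the same direction as the epithelial integrins. All 8 of those tested were below both Controls in every Prox1 OE library, beside 63.3% of all genes that did not overlap in either direction. Of the 8, 7 were called lower, beside 16.2% of all genes. Their median log2 fold change was -1.54, with Krt7 at -2.50, Krt19 at -2.41 and Epcam at -1.07. In bulk tumors, fewer cells of a type and less RNA per cell cannot be told apart. Differences of log2 counts within a library, which no scaling factor changes, were therefore compared, as a description with no test. Relative to Epcam, an adhesion protein of biliary epithelium, the groups overlapped for Itga2, Itga3 and Itgb4. They also overlapped for Itgav and Lama5, which are not on the epithelial integrin list. Itgb6 went from -4.35 and -4.23 in Control to -4.59, -5.29 and -5.14 in Prox1 OE, and Itgb8 from -2.22 and -2.37 to -2.74, -3.43 and -3.01, both without overlap. Itga6 lay on the other side, at -1.09 and -1.11 in Control and -0.22, -0.97 and -0.43 in Prox1 OE. The mesothelial markers, another epithelium, were also low, with 3 of 4 tested called lower, beside 16.2% of all genes. Among them was Msln, with 123 and 55.9 normalized counts in Control and 1.02, 3.54 and 1.16 in Prox1 OE. Relative to Krt19, a keratin of bile duct cells, all 6 epithelial integrins were higher in every Prox1 OE library, by 0.57 (Itgb8) to 1.90 (Itga6) between the group means. Itgb6 and Itgb8 thus lay below Control against Epcam and above it against Krt19, whereas Itga6 lay above Control against both.

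**Figure D3:**
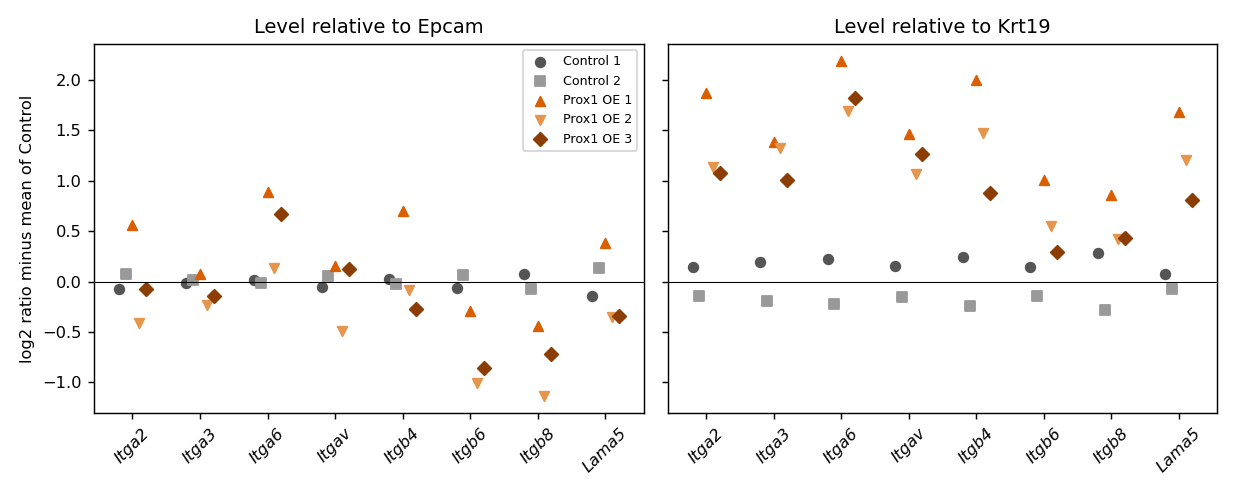
Difference of log2(normalized count + 1) between 8 members and the biliary marker Epcam (left) or Krt19 (right) within each library, minus the mean of the 2 Control libraries. Relative to Epcam, Itgb6 and Itgb8 have all 3 Prox1 OE symbols below both Controls, and Itga6 has them above. Relative to Krt19, all 3 Prox1 OE symbols lie above both Controls for every gene shown.

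Itgav pairs with Itgb3, Itgb5, Itgb6, Itgb8 or Itgb1 in receptors for ligands with an RGD motif, among them vitronectin, fibronectin, osteopontin and latent TGF-beta. Itgav and its partners Itgb1, Itgb6 and Itgb8 fell, Itgb3 was not called and Itgb5 rose. Itgav (chr2:83724397-83806916) had 7126 and 7337 normalized counts in Control and 3426, 3125 and 3264 in Prox1 OE, a log2 change of -1.14 ± 0.11 (SE, limma adjusted p = 0.002). All 3 Prox1 OE libraries lay in a narrow band below both Controls. Itgb5 (chr16:33829665-33949338) had 6844 and 6478 in Control and 10246, 9204 and 9601 in Prox1 OE. It was above both Controls in each, with a log2 change of 0.54 ± 0.11 (limma adjusted p = 0.011). Its call was lost without Control replicate 1 (limma adjusted p = 0.099), without Control replicate 2 (0.11) and when scaled by the total count (log2 fold change 0.11, limma adjusted p = 0.55). Within a library, Itgb5 minus Itgav in log2 counts was -0.06 and -0.18 in Control and 1.58, 1.56 and 1.56 in Prox1 OE, a shift of 1.68 that no scaling changes. The Itgb3 values were 298 and 561 in Control and 198, 221 and 310 in Prox1 OE, which overlapped (log2 fold change -0.78 ± 0.31, limma adjusted p = 0.092, not called). It was called lower with the replicate block, which leaves out Prox1 OE replicate 3 (limma adjusted p = 0.01). The same held with DESeq2 (0.043) and when scaled by the total count (0.0082). Its log2 change was -1.23 without Control replicate 1 and -0.32 without Control replicate 2, so it rested on single Control libraries. Itgb3 is otherwise best known from platelets and osteoclasts.

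Itgb1, which pairs with many other alpha subunits and had more RNA per kilobase of exon than Itgb5 in both groups, was left out of the next sums. Among the other 4 partners, set per kilobase of exon, Itgb5 held most of the RNA in both groups and its share grew. It made up 87.4% and 85.8% of the sum of Itgb3, Itgb5, Itgb6 and Itgb8 in Control and 96.5%, 96.3% and 96.2% in Prox1 OE. Itgb8 went from 7.60% and 6.82% to 1.63%, 1.59% and 1.40%, and Itgb6 from 2.70% and 2.92% to 0.703%, 0.679% and 0.493%. None of these 3 shares overlapped between groups.

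The bases upstream of Itgav, Itgb6 and Itgb5 are printed because these partners moved in opposite directions. They were taken from the RefSeq promoter table of GRCm38.p6 (the build of mm10), read 5′ to 3′ on the gene's strand from the outermost start and stopping before the first annotated exon. Capitals mark the PU.1 letters GAGGAA on either strand.
Itgav, chr2:83724147-83724396, plus strand: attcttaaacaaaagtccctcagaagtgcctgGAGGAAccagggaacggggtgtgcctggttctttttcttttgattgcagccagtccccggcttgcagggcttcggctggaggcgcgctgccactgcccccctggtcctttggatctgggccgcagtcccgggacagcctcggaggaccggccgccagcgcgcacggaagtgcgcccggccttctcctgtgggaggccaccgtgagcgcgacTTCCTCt
Itgb5, chr16:33829415-33829664, plus strand: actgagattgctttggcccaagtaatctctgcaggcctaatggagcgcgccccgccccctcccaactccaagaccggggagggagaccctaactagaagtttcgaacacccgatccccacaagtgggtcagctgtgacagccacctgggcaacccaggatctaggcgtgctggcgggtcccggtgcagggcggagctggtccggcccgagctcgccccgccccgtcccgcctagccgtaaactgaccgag
Itgb6, chr2:60722644-60722853, minus strand: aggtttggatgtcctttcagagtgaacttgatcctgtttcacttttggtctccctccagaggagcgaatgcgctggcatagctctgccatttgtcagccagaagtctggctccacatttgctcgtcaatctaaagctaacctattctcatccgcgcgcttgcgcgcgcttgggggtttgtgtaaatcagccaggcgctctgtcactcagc
PU.1 is a leukocyte transcription factor, RBPJ the DNA-binding partner of the Notch intracellular domain, AP-1 the Fos and Jun dimer and TEAD the partner of Yap. Their letters were searched on both strands of the 250 bases before each start, and 23 of the 36 members had 26 such windows in the table. GAGGAA was in 13 of the 26 (23.3% of 32851 promoters of all genes), GGAATG (TEAD) in 3 (12.6%), TGANTCA (AP-1) in 1, that of Itgax (6.75%), and GTGGGAA (RBPJ) in 0 (5.42%). In the windows printed, Itgav held GAGGAA on both strands, and the stretches printed for Itgb5 and Itgb6 held none of the 4 motifs. Itgb6 is nevertheless among the 13 members with GAGGAA, which lies outside the stretch printed for it. These are matches of letters, and none of them says that a factor binds there.

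**Figure D4:**
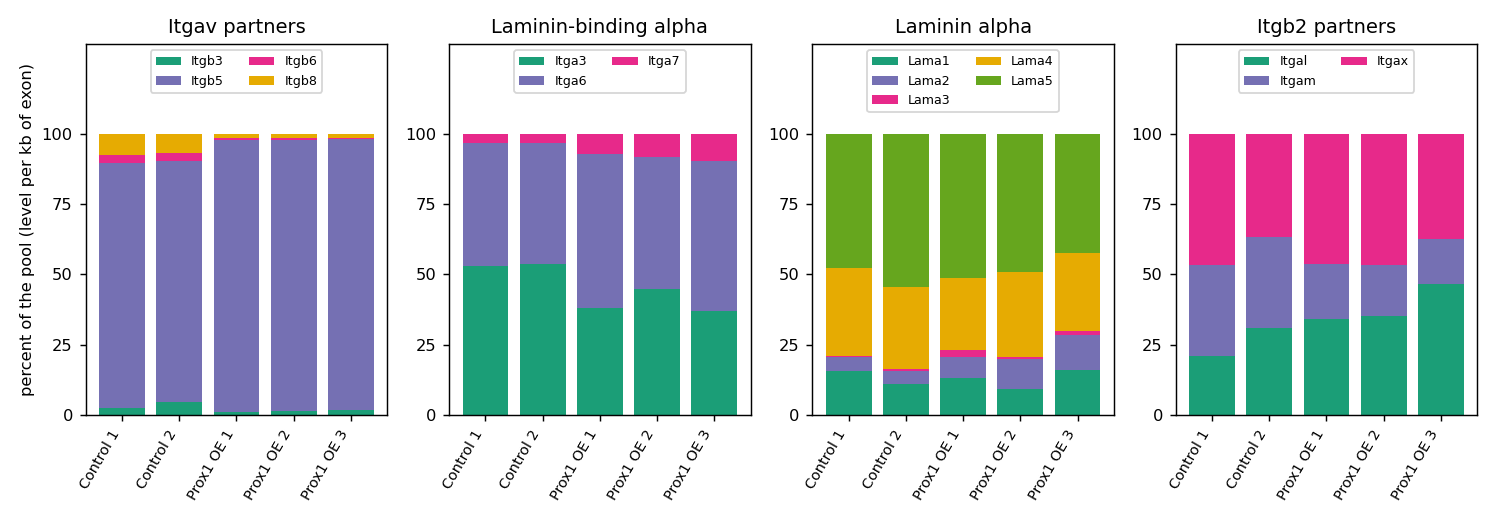
Share of each subunit in 4 pools of related genes in every library, as percent of the summed level per kilobase of exon, with Control replicates 1 and 2 first and Prox1 OE replicates 1 to 3 after them. Itgb5 fills 96.2% to 96.5% of the Itgav partner bars, which leave out Itgb1, in Prox1 OE, Lama2 gains share among the laminin alpha chains, Itga7 gains among the laminin-binding alpha subunits, and Itgam loses share among the Itgb2 partners.

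Among the laminins, 7 of 11 chains fell and 0 rose (median log2 fold change -0.54), beside 16.2% and 17.1% of all genes. Laminin-332, which holds Lama3 and Lamb3, is the laminin that hemidesmosomes bind, and neither of these chains was called. Lamb3 had 796 and 877 in Control and 831, 735 and 851 in Prox1 OE, which overlapped (log2 fold change -0.06 ± 0.14, limma adjusted p = 0.78, but 0.031 and -0.49 when scaled by the total count). Lama3 had 27.1 and 39.0 in Control and 107, 24.8 and 47.5 in Prox1 OE, also overlapping, with Prox1 OE replicate 1 alone far above the others (0.61 ± 0.58, limma adjusted p = 0.44).

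Lamc1 is the gamma chain of most laminins (chr1:153218922-153332786). It had 7859 and 7116 normalized counts in Control and 4282, 2976 and 2957 in Prox1 OE, a log2 change of -1.16 ± 0.18 (limma adjusted p = 0.0044). The groups did not overlap. Lamc3, another gamma chain, had 1448 and 1216 in Control and 1920, 1014 and 806 in Prox1 OE, with Prox1 OE replicate 1 above both Controls and the others below (-0.19 ± 0.33, limma adjusted p = 0.69). Without that library it was called lower (limma adjusted p = 0.036).

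Of the alpha chains, Lama5 is the chain of mature epithelial and vascular basement membranes, Lama4 that of vessels, and Lama1 that of early epithelia. Lama4 (chr10:38965515-39110188) had 2882 and 2686 normalized counts in Control and 1303, 1362 and 1012 in Prox1 OE, a log2 change of -1.19 ± 0.15 (SE, limma adjusted p = 0.0029). Lama5 (chr2:180176373-180225859) had 4112 and 4760 in Control and 2454, 2099 and 1450 in Prox1 OE, with -1.18 ± 0.22 (limma adjusted p = 0.0074). Each had every Prox1 OE library below both Controls. Lama1 (chr17:67697259-67822647) had 1132 and 822 in Control and 539, 337 and 462 in Prox1 OE, again apart, with -1.14 ± 0.23 (limma adjusted p = 0.011). Lama2, the chain of muscle and nerve, had 578 to 633 in Control and 499 to 653 in Prox1 OE and was not called (-0.05 ± 0.16, limma adjusted p = 0.82). Summed per kilobase of exon, the alpha chains went from 758 and 765 normalized counts per kb in Control to 420, 374 and 300.4 in Prox1 OE, while Lama5 stayed the largest share (42.4% to 54.7% over the 5 libraries). Relative to Pecam1, an endothelial marker that was not called (-0.27), Lama4 went from 0.55 and 0.24 in Control to -0.37, -0.28 and -0.94 in Prox1 OE, without overlap. Of the 8 endothelial markers, Clec4g (2.61), Stab2 (1.04) and Tek (0.56) were called higher and 0 lower, a number called near the 33.3% of all genes. Pecam1 and Cdh5 (-0.33) had every Prox1 OE library below both Controls, and 4 of the 8 had every one above. Lama2 grew from 5.11% and 4.63% of that smaller sum to 7.28%, 10.7% and 12.4%.

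Of the beta chains, Lamb1, the partner of many embryonic laminins, had 1773 to 1978 normalized counts in Control and 1255 to 1322 in Prox1 OE (log2 fold change -0.54 ± 0.12, limma adjusted p = 0.012), and Lamb2, its counterpart in mature basement membranes, 4272 to 4526 and 2414 to 3541 (-0.53 ± 0.17, limma adjusted p = 0.049). Both fell without overlap, although the fall of Lamb2 lost its call under 12 of the 16 alternatives. These were any single library left out (limma adjusted p of 0.05 to 0.25), TMM or upper-quartile scaling, a pseudocount of 0.1, no filter, limma without trend, edgeR and the replicate block (adjusted p of 0.05 to 0.11). Without Control replicate 1, the calls for Lamc1 (limma adjusted p = 0.052), Lama5 (0.051), Lama1 (0.12) and Lamb1 (0.16) were lost, and without Control replicate 2 those for Lama5 (0.058) and Lamb1 (0.066).

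Itga7, a laminin receptor best known from muscle, rose while Itga3 and Itga6 fell. It had 256 and 258 normalized counts in Control and 375, 411 and 432 in Prox1 OE, a log2 change of 0.65 ± 0.16 (SE, limma adjusted p = 0.019). Among laminin-binding alpha subunits, per kilobase of exon, Itga7 went from 3.09% and 3.23% to 7.34%, 8.20% and 9.80%, and Itga3 from 52.8% and 53.8% to 38.2%, 44.8% and 36.9%. The call for Itga7 was lost without Control replicate 1, Control replicate 2, Prox1 OE replicate 2 or Prox1 OE replicate 3 (limma adjusted p of 0.15, 0.13, 0.055 and 0.051) and when scaled by the total count (log2 fold change 0.22, limma adjusted p = 0.34).

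Itga11, a collagen receptor of fibroblasts (chr9:62677826-62783982), had 117 and 141 normalized counts in Control and 40.9, 57.8 and 47.5 in Prox1 OE, a log2 change of -1.40 ± 0.27 (SE, limma adjusted p = 0.009). All Prox1 OE values were well below the lower Control. Relative to Pdgfrb, a receptor of stellate cells and fibroblasts that was not called (-0.08), Itga11 went from -4.03 and -3.47 in Control to -5.29, -4.85 and -5.05. Of 10 stellate and fibroblast markers, 4 fell (Acta2 by 1.32, Col1a1 by 1.23, Rgs5 by 0.77 and Col3a1 by 0.66 on the log2 scale) and Lrat rose. Over all genes, 16.2% fell and 17.1% rose. Itga1, the neighbor of Itga2 at a distance of 21.0 kb on chromosome 13, had 1839 to 2022 in Control and 1542 to 1984 in Prox1 OE (-0.18 ± 0.14, limma adjusted p = 0.36), and Itga10, the collagen receptor of cartilage, 101 to 117 and 85.9 to 145 (0.10 ± 0.28, limma adjusted p = 0.8). Neither was called, and both overlapped. Itga1 was called lower when scaled by the total count (-0.61, limma adjusted p = 0.0072). Itga10 was negative when scaled by the total count (-0.33), and it shares 33.5% of its exonic bases with Gm42957 on the same strand. The call for Itga11 was lost without Control replicate 1 (limma adjusted p = 0.071) or 2 (0.092).

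Itga5, the fibronectin receptor, had 5582 and 5941 normalized counts in Control and 3819, 3926 and 3458 in Prox1 OE, a log2 change of -0.63 ± 0.11 (SE, limma adjusted p = 0.0068). Itgb1, the beta subunit shared by most alpha subunits and the most abundant integrin per kilobase of exon in both groups, had 21916 and 20878 in Control and 17600, 14820 and 15187 in Prox1 OE (-0.43 ± 0.13, limma adjusted p = 0.042). Itga9, a receptor for tenascin-C, had 2527 and 2373 in Control and 1898, 1645 and 1773 in Prox1 OE (-0.47 ± 0.12, limma adjusted p = 0.021). All 3 genes were lower in every Prox1 OE library than in either Control. Without Control replicate 1 the limma adjusted p was 0.066 for Itga5, 0.27 for Itgb1 and 0.19 for Itga9, and without Control replicate 2 it was 0.074, 0.18 and 0.11. Without Prox1 OE replicate 2, Itgb1 (0.1) and Itga9 (0.058) were not called, nor was Itgb1 without Prox1 OE replicate 3 (0.093). Itgb1 lost its call under 8 of the 16 alternatives in all. Itga8, a receptor of smooth muscle and stellate cells for nephronectin, had 664 to 797 in Control and 734 to 1112 in Prox1 OE and was not called (0.32 ± 0.20, limma adjusted p = 0.25; -0.12 with the total count). Itga2b, the platelet subunit, had 101 to 143 and 125 to 188 and was not called either (0.40 ± 0.27, limma adjusted p = 0.29; -0.03 with the total count). Of 6 platelet and megakaryocyte markers only Pf4 was abundant enough to test, and Gp1bb had no more than 3 reads in any library.

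Of 7 leukocyte integrins tested, 2 were called higher and 1 lower, beside 17.1% and 16.2% of all genes. The number called was thus near that over all genes. The leukocyte list had a median log2 fold change of 0.47 (0.04 when scaled by the total count, 0.27 without Control replicate 2 and 0.27 without Prox1 OE replicate 1). Itgal, the alpha subunit of LFA-1 on lymphocytes, had 337 and 444 normalized counts in Control and 601, 517 and 814 in Prox1 OE, a log2 change of 0.71 ± 0.23 (SE, limma adjusted p = 0.049). Itgb7, the beta subunit of gut-homing and intraepithelial lymphocytes, had 119.9 and 96.6 in Control and 176, 155 and 191 in Prox1 OE (0.68 ± 0.22, limma adjusted p = 0.049). Every Prox1 OE library was above both Controls for each, but both calls were lost with any single library left out (limma adjusted p of 0.052 to 0.32 for Itgal and 0.06 to 0.3 for Itgb7) and when scaled by the total count (0.29 and 0.42). In all, each was lost under 10 of the 16 alternatives.

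Itgam, the alpha subunit of Mac-1 on macrophages and neutrophils, was the leukocyte subunit that fell. It had 394 and 359 normalized counts in Control and 265, 205 and 212 in Prox1 OE, a log2 change of -0.73 ± 0.19 (SE, limma adjusted p = 0.023), and the groups did not overlap. Its partner Itgb2 had 930.0 and 705 in Control and 1490, 990.0 and 957 in Prox1 OE, all above both Controls, but it was not called (0.47 ± 0.23, limma adjusted p = 0.15) other than with the replicate block (0.018). Per kilobase of exon, Itgam went from 32.2% and 32.6% of the Itgb2 partners Itgal, Itgam and Itgax to 19.6%, 18.2% and 15.9%, and Itgal from 21.0% and 30.8% to 34.0%, 35.1% and 46.6%. Itgam and Itgax are neighbors 11.1 kb apart on chromosome 7, yet Itgax, the dendritic cell and macrophage subunit, had 547 and 386 in Control and 600, 503 and 479 in Prox1 OE, which overlapped (0.19 ± 0.20, limma adjusted p = 0.49; -0.24 with the total count). The call for Itgam was lost without Control replicate 1, Control replicate 2, Prox1 OE replicate 2 or Prox1 OE replicate 3 (limma adjusted p of 0.2, 0.12, 0.068 and 0.056). It shares 68.7% of its exonic bases with Gm49368 on the same strand, and how such reads were counted is not given in the sources used here.

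Itgae, the subunit of intraepithelial T cells that binds E-cadherin, had 44.4 and 37.3 normalized counts in Control and 60.3, 72.0 and 96.1 in Prox1 OE. All 3 were above both Controls and the log2 change was 0.86 ± 0.31 (SE, limma adjusted p = 0.065, not called). It was called higher without Prox1 OE replicate 1 (limma adjusted p = 0.035) and with DESeq2 (0.048). Itga4, which pairs with Itgb1 or Itgb7 on lymphocytes, had 252 and 181 in Control and 345, 249 and 259 in Prox1 OE (0.39 ± 0.23, limma adjusted p = 0.23; -0.04 with the total count) and was not called, with overlapping groups.

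General leukocyte markers are given beside these values. Of 12, 1 was called higher (Cd3e, the T cell receptor component, by 1.14), 6 had all Prox1 OE libraries above both Controls and 0 below (33.3% of all genes were called and 63.3% did not overlap), none was at the floor of 3 reads in every library, and the median log2 change was 0.46. Their summed level was 19049 to 25649 normalized counts in Control and 27226 to 45866 in Prox1 OE. Ptprc, which marks all leukocytes, had 805 and 612 in Control and 1104, 713 and 892 in Prox1 OE (0.34 ± 0.21, limma adjusted p = 0.25). Relative to Ptprc, Itgam was at -1.03 and -0.77 in Control and -2.06, -1.79 and -2.07 in Prox1 OE, well apart. Itgb7 was at -2.74 and -2.65 in Control and -2.64, -2.20 and -2.22 in Prox1 OE. Its groups did not overlap, but Prox1 OE replicate 1 lay next to Control replicate 2. For the other 5 leukocyte subunits the groups overlapped once set against Ptprc. How far the number of leukocytes entered these values was not tested.

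**Figure D5:**
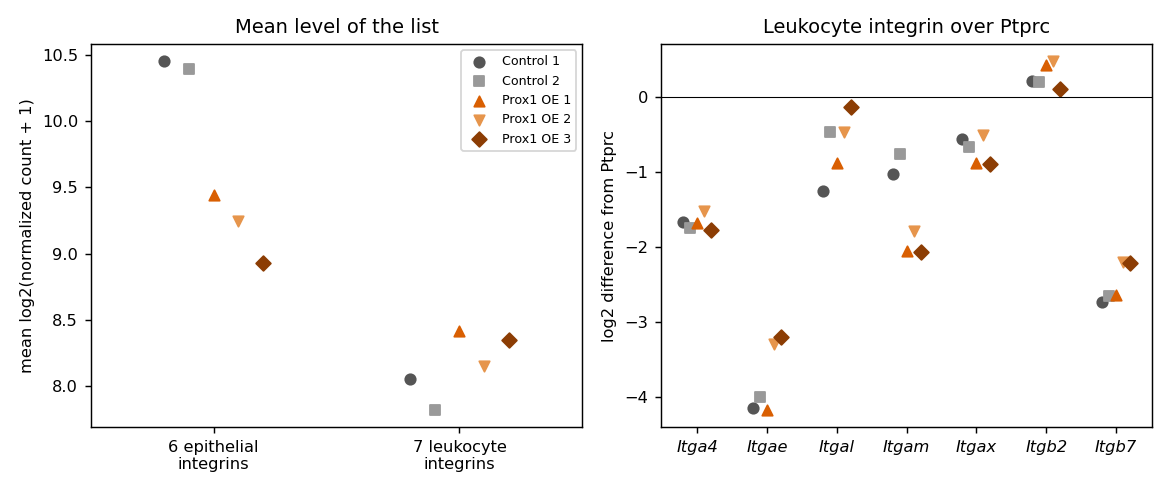
Left, mean log2(normalized count + 1) of the 6 epithelial and the 7 leukocyte integrins in each library. Right, difference of log2(normalized count + 1) between each leukocyte integrin and Ptprc within a library. The epithelial mean is 10.4 to 10.5 in Control and 8.93 to 9.44 in Prox1 OE, the leukocyte mean 7.82 to 8.06 and 8.15 to 8.41, and Itgam stands below its Control values in all 3 Prox1 OE libraries.

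Set directly against each other within a library, the mean log2 count of the epithelial integrins exceeded that of the leukocyte integrins by 2.40 and 2.58 in Control and by 1.03, 1.09 and 0.58 in Prox1 OE. The 2 groups of libraries were apart by a mean of -1.59, a difference that no scaling factor changes.

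Other genes of the same pathways were counted over the gene lists. Over all genes tested, 16.2% fell and 17.1% rose, with a median of -0.02, and the counts of these lists are to be read beside that. Of 20 basement membrane genes tested besides laminins, 11 fell and 1 rose (median log2 fold change -0.59). The largest decreases were Frem2 (-2.10) and the type IV collagen chains Col4a6 (-1.55) and Col4a5 (-1.13), and the gene that rose was Npnt, nephronectin (1.36). Of 5 hemidesmosome partners tested 3 fell, namely Col7a1, the anchoring fibril collagen (-1.30), the tetraspanin Cd9 (-0.59) and the linker Plec (-0.48). Dst (0.003) and Cd151 (-0.09) were not called, and Col17a1, at 4.24 to 12.7 normalized counts, was too low to test. Of 5 other laminin receptors, Bcam (-0.92) and Dag1, dystroglycan (-0.90), fell and Sdc1, syndecan-1 (0.48), rose.

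Among 19 further integrin ligands 6 fell and 1 rose (median log2 fold change -0.18), a number called that is close to the 33.3% of all genes. Thbs1, thrombospondin-1 (-2.11), Tnc, the ligand of Itga9 (-1.39), and Cdh1, E-cadherin, the ligand of Itgae (-1.16), fell most, and Vtn, the vitronectin that Itgav with Itgb5 binds, rose by 0.92. Of 32 integrin activators and adhesion adaptors, 10 fell and 4 rose (median -0.11), beside 16.2% and 17.1% of all genes. The kindlins, which bind beta subunit tails, went separate ways by gene. Fermt1 of epithelia fell by 1.39 on the log2 scale and Fermt2 by 0.35, while Fermt3 of blood cells rose by 0.70. The actin linkers Actn1 (-1.31) and Flna (-1.10) fell, and Lims2 (0.86) and Tns2 (0.52) rose.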

How the data were processed

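RNA of dissected liver tumors was sequenced as paired-end libraries by a dUTP protocol, which keeps strand. Per the labels, reads were mapped to mm10 with STAR and normalized with DESeq2. The counting tool and its strand setting are not given in the sources used here. The deposited values are a signal per gene, namely reads divided by a size factor set by the authors. Each value was a whole multiple of 1 read (0.822 to 1.18 normalized counts, within 0.1 read) for 100% of values, so whole reads were recovered for the count tests. Totals were 48740863 to 56629477 reads, and 3 reads, the floor, were 2.46 to 3.54 normalized counts. Floors cover counting error only. The number of unassigned columns was 0. A second deposited table, with fold changes and p-values of the authors' own comparison, was not used.

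The 17105 genes with a mean of at least 10 normalized counts were tested with limma 3.58.1 (lmFit, eBayes with trend, R 4.3.3), two-sided, on log2(normalized count + 1), a scale that understates the change of low genes, adjusted after Benjamini and Hochberg, at a threshold of 0.05. No covariate was used. Symbols, positions and exonic lengths came from GENCODE M21, which matched 55137 of 55397 identifiers (99.5%), and levels between genes were compared per kilobase of exon. Members and gene lists were chosen with earlier results of these data known. All members but 1, which is counted but not reported here by name, were named, with values of each library for those called with a change of at least 1 and for the epithelial, leukocyte and laminin-332 lists, and from each companion list at most 3 called genes a direction. Fermt2, Itgb3, Cdh5, Dst, Cd151, Col17a1 and the per-library values of the other members were added after their values were seen.

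Alternatives were TMM, upper-quartile and total count scaling, a pseudocount of 0.1 or 10, a filter at 50 or none, limma without trend, DESeq2 1.42.0 and edgeR 4.0.16 quasi-likelihood fits of the recovered reads, blocking on replicate number, and leaving out each library. The replicate block used only replicate numbers found in both groups and so left out Prox1 OE replicate 3. The fit was tested on simulated counts with 200 changed genes, as many raised as lowered. That is far fewer than the 5702 genes called here, so the simulation cannot speak to the choice of scaling.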

Additional observations from a re-analysis of the deposited data

How the results depend on the processing

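Under 16 alternatives, 473 of 575 recomputed fold changes of members kept their direction and side of the threshold, 78 lost a call, 9 gained a call and 15 changed sign. None of the 23 called members changed sign (0 of 23). With only 2 Control libraries, counts of calls rested on single libraries. Leaving out one at a time gave 6 to 22 members called, 0 to 3 higher and 6 to 19 lower. The members called higher were 0 with the total count as library size, 2 with a pseudocount of 10 and 2 with no filter. Where 1 Control was left, its spread was assumed to be that of the other group.

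The total count moved the median log2 fold change of the epithelial integrins to -1.54, of the leukocyte integrins to 0.039 and of the laminins to -0.97, beside -0.44 for all genes. The laminin median was -0.84 with a mean of at least 50, which leaves out Lama3. The leukocyte median was 0.27 to 0.63 with libraries left out.

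Sign changes were limited to members that were not called. With the total count they were Itga10 (-0.33), Itga2b (-0.027), Itga4 (-0.036), Itga8 (-0.12) and Itgax (-0.24). With libraries left out, Itga10 ran from -0.05 to 0.32, Itgax from -0.06 to 0.44, Lama2 from -0.14 to 0.057, Lamb3 from -0.13 to 0.014 and Lamc3 from -0.55 to 0.072. The cause was not tested.

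No label ties equal replicate numbers together, and deviations of same-numbered libraries correlated at 0.14 and 0.02. With the replicate block, which left out Prox1 OE replicate 3, 21 members were called. Itgal, Itgb1, Itgb7 and Lamb2 lost their call and Itgb2 and Itgb3 gained one, while Itga10 was -0.05 and Lamc3 0.072. DESeq2 on recovered reads called 25 and edgeR 20. Genes at a few reads, such as Itgad, could not be compared at this depth.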
